A study of Mus musculus with 6 samples.

Results

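PPAR, RXR and LXR receptors are ligand-activated transcription factors, and the 8 mouse genes that encode them are *Ppara*, *Ppard* and *Pparg*, *Rxra*, *Rxrb* and *Rxrg*, and *Nr1h2* (LXRβ) and *Nr1h3* (LXRα). They were followed in the gene expression table of inguinal white adipose tissue (iWAT) in *Hlx* transgenic mice and their wild-type littermates. Members were taken by gene symbol, and 7 of the 8 had a row of their own among the 19445 rows. The remaining gene, *Nr1h3*, shares a single row with its neighbour *Madd*, so its level is not given apart from that of *Madd*.

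RNA-Seq was run on iWAT, a subcutaneous fat depot, from 3 transgenic (TG) and 3 wild-type (WT) mice of 12 weeks, with 1 library from each animal. The transgene joins *Hlx* cDNA to a 5.4-kb piece of the *aP2* (*Fabp4*) promoter, which is active in adipocytes. Hybrid embryos of C57BL/6 and SJL mice received the construct, and their descendants were crossed to C57BL/6 for 3 generations or more. The sources used here do not give the number of transgenic lines behind the 3 TG mice. Values are FPKM, reads of a gene corrected for its transcript length and for the size of the library, so levels can be set side by side between genes. Genotypes were compared with limma on log2(FPKM + 1), a scale that shrinks fold changes of weakly expressed genes, over 11692 loci whose mean FPKM exceeded 1 in WT or TG mice. "Called" below means a Benjamini-Hochberg adjusted p under 0.05 over those loci. An exact permutation test of 3 mice against 3 has 20 arrangements and cannot give a two-sided p under 0.1.

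PPAR and LXR proteins bind DNA as heterodimers with an RXR, which makes the RXRs shared partners of both subfamilies. PPARs respond to fatty acids and their derivatives and LXRs to oxysterols, and the bound ligand exchanges corepressors for coactivators. In fat, PPARγ drives adipocyte differentiation in both white and brown depots, PPARα is known for genes of fatty acid oxidation and is abundant in brown fat, and LXRs act on cholesterol efflux and lipogenesis. The *Fabp4* promoter used in the transgene is itself a classical target of PPARγ with RXRα.

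*Hlx* had 109.7, 79.6 and 99.5 FPKM in the TG mice and 6.88, 7.35 and 8.14 FPKM in the WT mice, with every TG mouse above every WT mouse (log2 fold change 3.51, limma adjusted p = 0.000106). The deposited values do not part transgene from endogenous *Hlx* transcripts. The labels give all mice as male, but *Xist* lay between 20.2 and 33.6 FPKM in the 6 mice and 0 of 28 rows on chromosome Y were above 0, so the sex label goes against the data in both genotypes. Among 11692 loci, 1352 were higher and 822 lower in TG, with a median log2 fold change of -0.01. Summed markers of brown or beige adipocytes were 7930, 6386 and 6127 FPKM in TG and 1051, 611 and 703 FPKM in WT mice, with 6 of 7 called higher. Summed macrophage markers were 356, 507 and 387 FPKM in TG and 796, 752 and 952 FPKM in WT mice, with 4 of 6 called lower. Lymphocyte, fibroblast or progenitor, and epithelial markers had negative median log2 fold changes (-0.50, -0.205 and -0.33). Of these, 1 of 6, 0 of 6 and 0 of 5 were called lower, and their sums overlapped between genotypes. Summed endothelial markers were 133 to 137 FPKM in TG and 139 to 143 FPKM in WT mice, with 1 of 6 called higher and 1 lower. Summed adipocyte markers ran from 27480 to 32580 FPKM in TG and from 23170 to 28820 FPKM in WT mice, with 1 of 5 (*Adipoq*) called lower, and most of this sum is *Fabp4*, at 24561 to 29363 FPKM in TG and 19297 to 23539 FPKM in WT mice. In a bulk sample, fewer cells of a type and less RNA per cell cannot be told apart. The part of cell composition in the receptor values was not tested.

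Of the 7 receptors with a row of their own, all passed the expression filter and 2 were called, *Ppara* higher and *Rxra* lower in TG iWAT. Among all tested loci, 18.6% were called, 11.6% higher and 7.03% lower. The other 5 receptors were not called, and a p that misses the threshold does not show that their levels were alike. Genotypes did not overlap for 3 of the 7 receptors (*Ppara*, *Rxra* and *Rxrb*), against 42.9% of all tested loci (22.8% with TG higher and 20.1% with TG lower). Neither share is far from that of the table as a whole, so the receptors are described one by one.

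*Ppara* encodes PPARα, and its locus lies on chr15:85735564-85806851 of mm10, on the + strand. It had 27.1, 27.8 and 43.0 FPKM in the TG mice and 6.17, 2.54 and 4.85 FPKM in the WT mice. Every TG mouse was above every WT mouse by a wide gap, TG 3 was the highest and WT 2 the lowest. Mean FPKM was 32.6 ± 8.97 in TG and 4.52 ± 1.84 in WT iWAT (SD, n = 3 mice each), a 7.21-fold ratio. The log2 fold change was 2.63 with a standard error of 0.29 and a 95% interval from 1.96 to 3.31 (limma adjusted p = 0.00192, exact permutation p = 0.1). *Ppara* was called under all 14 alternative settings, with log2 fold changes from 2.34 to 2.88.

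*Pparg*, on chr6:115361221-115491431 (+ strand), encodes the PPAR that white and brown adipocytes both require. It had 193, 103 and 95.7 FPKM in the TG mice and 116, 169 and 101 FPKM in the WT mice. The genotypes overlapped, and TG 1 and WT 2 stood above the other mice of their genotype. Mean FPKM was 131 ± 54.2 in TG and 129 ± 36.0 in WT iWAT (SD, n = 3 each). Its log2 fold change was -0.02 with a 95% interval from -0.73 to 0.70 (limma adjusted p = 0.973, exact permutation p = 1.0). This interval is wide, and the sign turned when single mice were left out. *Pparg* transcripts from its alternative starts are summed in the gene value, so its isoforms were not compared.

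*Ppard*, on chr17:28232754-28301473 (+ strand), encodes PPARδ, a broadly present fatty acid sensor. Its levels were 18.6, 19.7 and 16.9 FPKM in TG mice and 21.2, 17.1 and 18.2 FPKM in WT mice, with mixed order between the genotypes. The log2 fold change was -0.03 with a 95% interval from -0.27 to 0.21 (limma adjusted p = 0.862, exact permutation p = 0.9), a much narrower interval than that of *Pparg*.

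**Figure D1:**
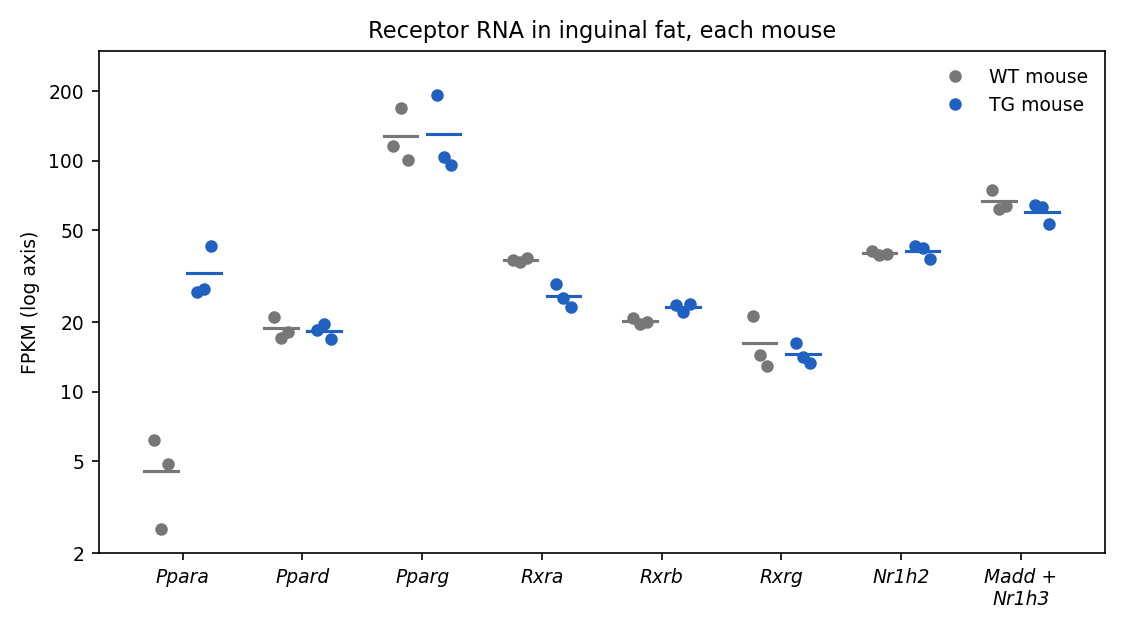
FPKM (log axis) of each receptor in each of 3 WT mice (grey) and 3 TG mice (blue), with a line at the mean of the genotype and the merged row of *Madd* and *Nr1h3* at the right. *Ppara* lies between 2.54 and 6.17 FPKM in WT and between 27.1 and 43.0 FPKM in TG mice, while the points of *Pparg*, *Ppard*, *Rxrg* and *Nr1h2* overlap.

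The plot of receptor levels by mouse also shows the order of the genes, which are set side by side here as FPKM. In WT iWAT *Pparg* came first (101 to 169 FPKM), then *Nr1h2* (39.1 to 40.9) and *Rxra* (36.5 to 37.9), whose ranges did not meet. *Rxrb*, *Ppard* and *Rxrg* followed at means of 20.2, 18.8 and 16.2 FPKM with overlapping neighbours, and *Ppara* was last at 2.54 to 6.17 FPKM. In TG iWAT *Pparg* was again first, above *Nr1h2*. *Nr1h2*, *Ppara*, *Rxra* and *Rxrb* followed in that order, with overlap between each neighbouring pair. *Ppard* and *Rxrg* came last, and *Rxrb* did not overlap *Ppard*. *Ppara* thus stood at rank 7 of 7 in WT and at rank 3 of 7 in TG mice, where its range overlapped those of its neighbours in the order.

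Within the PPAR subfamily, the ratio of *Ppara* to *Pparg* FPKM was 0.140, 0.269 and 0.449 in TG mice and 0.0534, 0.0150 and 0.0480 in WT mice. The ratio was higher in each TG mouse than in any WT mouse, by a mean log2 difference of 2.93 or 7.60-fold. The exact two-sided permutation test gave p = 0.1, and 0.2 after adjustment over the 4 ratios compared. *Ppara* made up 11.3%, 18.4% and 27.6% of summed PPAR FPKM in TG mice and 4.32%, 1.34% and 3.91% in WT mice. The share of *Pparg* was 80.9%, 68.6% and 61.5% in TG mice and 80.9%, 89.6% and 81.5% in WT mice. TG 1 and WT 1, to the digits shown, thus held the same *Pparg* share, at very different *Ppara* shares, with *Ppard* at 7.79% and 14.8%. The ratio of *Ppard* to *Pparg* differed by -0.01 on the log2 scale, with overlap (exact permutation p = 0.9).

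**Figure D2:**
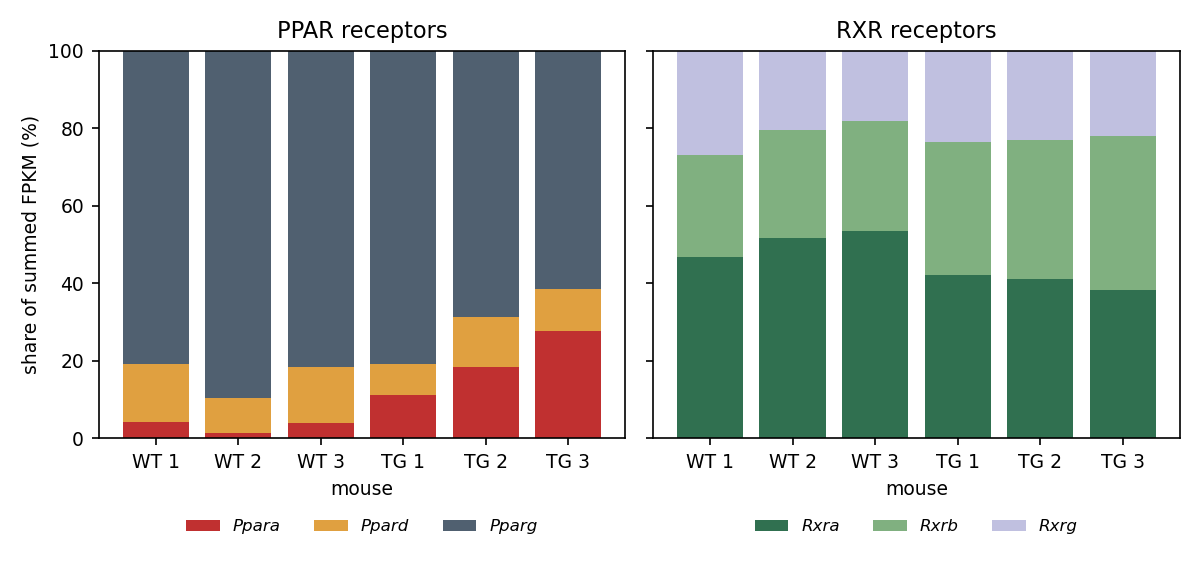
Share of each receptor (%) in the summed FPKM of the PPAR subfamily (left) and of the RXR subfamily (right), 1 bar per mouse. The *Ppara* share is 1.34% to 4.32% in WT and 11.3% to 27.6% in TG mice, and the *Rxra* share is 46.9% to 53.5% in WT and 38.4% to 42.2% in TG mice.

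*Rxra*, on chr2:27677201-27763319 (+ strand), encodes RXRα, a partner of PPARs and LXRs. It had 29.2, 25.4 and 23.2 FPKM in TG mice and 37.2, 36.5 and 37.9 FPKM in WT mice. The WT mice were close together and all of them lay above the TG mice. Mean FPKM was 25.9 ± 3.03 in TG and 37.2 ± 0.700 in WT iWAT (SD, n = 3 each), a ratio of 0.697. The log2 fold change was -0.51 with a standard error of 0.096 and a 95% interval from -0.74 to -0.28 (limma adjusted p = 0.0133, exact permutation p = 0.1). *Rxra* was called under all 14 alternatives, with log2 fold changes from -0.60 to -0.44 and adjusted p between 0.00569 and 0.0496.

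RefSeq lists 2 start sites of *Rxra*, and the second, 32091 bases downstream of the first, has in its upstream window the letters that nuclear receptors of this class recognise. The half-site AGGTCA was searched on both strands in the 14 RefSeq windows of the 8 receptor genes, each from 250 bases before to 50 bases after a start. It occurs in 4 of them, once each in a *Rxrg* window and in 2 *Pparg* windows and 2 times before the second *Rxra* start, and 16.3% of all 32851 windows hold it. The paired forms AGGTCANAGGTCA, the layout bound by PPAR with RXR, and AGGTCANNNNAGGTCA, the layout bound by LXR with RXR, occur in none of the receptor windows, and in 0.0396% and 0.0152% of all windows. The 250 bases before the second *Rxra* start are shown because that gene was called and the window has the most half-sites among the 14. They lie at chr2:27709042-27709291 of GRCm38.p6 on the + strand (sequence from RefSeq), outside annotated GENCODE exons, with the half-sites in capitals, first as its reverse complement TGACCT 87 bases and then as AGGTCA 48 bases before the start.
Rxra upstream window: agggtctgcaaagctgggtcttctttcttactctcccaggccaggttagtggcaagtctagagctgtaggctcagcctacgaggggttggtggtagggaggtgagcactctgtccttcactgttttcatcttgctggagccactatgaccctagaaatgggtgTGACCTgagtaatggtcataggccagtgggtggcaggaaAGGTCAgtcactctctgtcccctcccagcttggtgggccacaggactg
The gene-level values do not show which start was used, so these letters describe the locus and are tied to no measurement. The *Ppara* window holds no AGGTCA, which says only that these letters are not in it.

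The locus listed for *Rxrb* is chr17:34026033-34038440 (+ strand), wider than the gene, which GENCODE places at chr17:34031812-34038399. *Rxrb* encodes RXRβ. It had 23.7, 22.2 and 24.0 FPKM in TG mice and 20.8, 19.7 and 20.1 FPKM in WT mice. All TG mice were above all WT mice, by a small step. The ratio of means was 1.15, from 20.2 ± 0.571 in WT to 23.3 ± 0.941 FPKM in TG iWAT (SD, n = 3 each). The log2 fold change was 0.20 with a 95% interval from 0.03 to 0.36, and *Rxrb* was not called (limma adjusted p = 0.0932, exact permutation p = 0.1), nor was it under any of the 14 alternatives. The locus also carries *H2-Ke6* and *Slc39a7*, with no annotated exon base in common with *Rxrb*.

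*Rxrg*, on chr1:167598362-167639623 (+ strand), encodes RXRγ, the RXR of narrowest tissue range, which is best known from muscle and brain. It had 16.3, 14.2 and 13.3 FPKM in TG mice and 21.3, 14.4 and 12.9 FPKM in WT mice. WT 1 was the highest of the 6 and the genotypes overlapped. For *Rxrg* the log2 fold change was -0.12 with a 95% interval from -0.54 to 0.31 (limma adjusted p = 0.673, exact permutation p = 0.8). Summed skeletal muscle markers were 78.3, 572.5 and 115 FPKM in TG mice and 7.15, 121 and 35.1 FPKM in WT mice. They were highest in TG 2 and lowest in WT 1, and 0 of 7 muscle markers were called, all with overlap between the genotypes. The part of muscle RNA in the values of *Rxrg* or of other genes was not tested.

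Within the RXR subfamily, summed FPKM was 69.2, 61.8 and 60.5 in TG mice and 79.3, 70.6 and 70.9 in WT mice, with every TG mouse below every WT mouse. The ratio of *Rxrb* to *Rxra* was 0.813, 0.876 and 1.03 in TG mice and 0.560, 0.540 and 0.530 in WT mice. It was higher in each TG mouse, by a log2 difference of 0.73 or 1.66-fold (exact permutation p = 0.1, and 0.2 adjusted over the 4 ratios). *Rxra* took 42.2%, 41.1% and 38.4% of summed RXR FPKM in TG mice and 46.9%, 51.7% and 53.5% in WT mice. *Rxrb* took 34.3%, 36.0% and 39.6% in TG mice and 26.2%, 27.9% and 28.3% in WT mice. In TG 3 the 2 genes had nearly the same FPKM, while in each WT mouse *Rxra* was well above *Rxrb*. The ratio of *Rxrg* to *Rxra* differed by 0.41 on the log2 scale, with overlap between the genotypes (exact permutation p = 0.3).

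*Nr1h2*, on chr7:44549619-44554059 (− strand), encodes LXRβ, the broadly present oxysterol receptor. It had 42.8, 41.8 and 37.7 FPKM in TG mice and 40.9, 39.1 and 39.6 FPKM in WT mice. The WT range lay inside the TG range. For *Nr1h2* the log2 fold change was 0.03 with a 95% interval from -0.16 to 0.22 (limma adjusted p = 0.806, exact permutation p = 0.7).

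*Nr1h3* encodes LXRα, the LXR of liver, fat and macrophages. The single row that carries its symbol joins it with *Madd*, on chr2:91137340-91195116 (− strand), and holds 64.7, 62.8 and 53.4 FPKM in TG mice and 74.9, 61.9 and 63.9 FPKM in WT mice. The genotypes overlapped in this merged value, whose log2 fold change was -0.15 with a 95% interval from -0.41 to 0.12 (limma adjusted p = 0.380, exact permutation p = 0.5). Since the share of *Nr1h3* in it is not given, no ratio of the LXR genes was formed and no statement on *Nr1h3* is made.

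**Figure D3:**
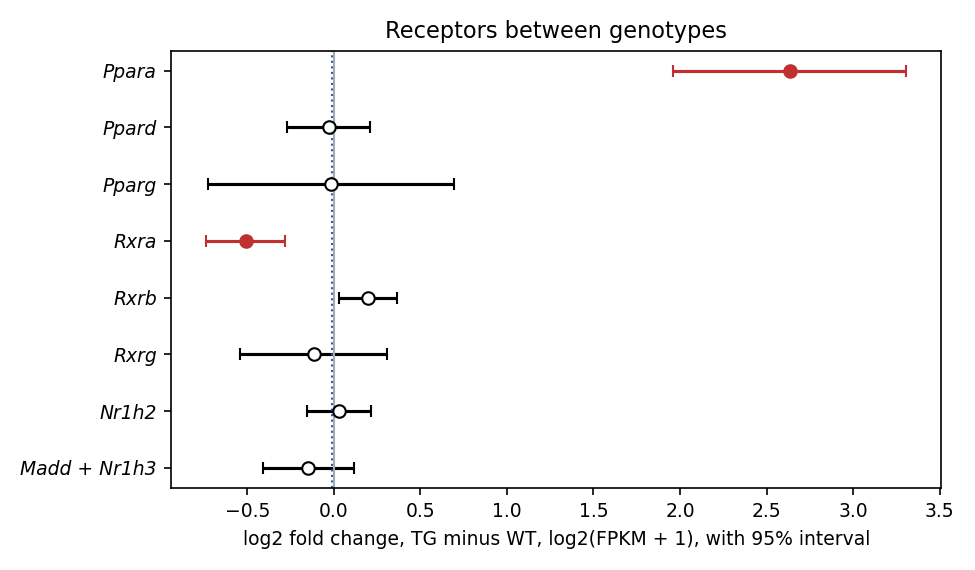
Log2 fold change (TG minus WT, on log2(FPKM + 1)) of each receptor with its 95% interval from limma, 3 mice per genotype, filled where the adjusted p is under 0.05, with a solid line at 0 and a dotted line at the median of all tested loci (-0.01). *Ppara* at 2.63 and *Rxra* at -0.51 are filled, and the interval of *Pparg*, from -0.73 to 0.70, is the widest among the receptors not called.

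The plot of fold changes sets the widths of the intervals beside each other. *Rxrb* and *Nr1h2* had the narrowest intervals. Those of *Rxrb*, *Nr1h2* and *Ppard* reach no further than 0.36 from 0 on the log2 scale, whereas the interval of *Pparg* reaches from -0.73 to 0.70.

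For each receptor, the loci whose levels moved most like it over the 6 mice were found by the root mean square difference of centred log2(FPKM + 1). Nearest to *Ppara* were *Slc27a2*, a very long-chain acyl-CoA synthetase, at a difference of 0.267 log2 units, and *Plin5*, a lipid droplet protein of oxidative tissues, at 0.270. *Slc27a2* had 13.0, 11.4 and 20.4 FPKM in TG mice and 1.36, 0.0756 and 1.34 FPKM in WT mice. It passed the expression filter through the TG mice alone. As for *Ppara*, its highest value was in TG 3 and its lowest in WT 2. Nearest to *Pparg* were *Rhob*, a small GTPase (0.097), and *Car1*, a carbonic anhydrase (0.135). *Rhob* had 139, 67.8 and 74.0 FPKM in TG mice and 86.3, 108 and 69.9 FPKM in WT mice, with TG 1 and WT 2 high as for *Pparg*. *Rxra* was most like *Hs1bp3* (0.046) and *Zbtb4* (0.056), *Rxrb* was most like *Tfam*, a mitochondrial transcription factor (0.018), and *Ccny* (0.019), and *Rxrg* was most like *Adig*, the adipocyte protein adipogenin (0.037), and *Csad* (0.056). *Ppard* was most like *Fkbp2* and *Ncbp2* (0.024 each), and *Nr1h2* was most like *Ehd1* (0.018) and *Aida* (0.023). Differences of this size are small where a gene hardly varies, and the likeness over 6 mice of 2 genotypes is a description without a test. The loci were picked for this likeness, so a shared order of the mice follows from the choice and adds nothing to it.

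Genes through which the receptors act were then counted in lists. Of 30 listed PPARα targets, 25 were tested. Of these, 16 were higher in TG, 0 were lower and 9 were not called, or 64.0% higher beside 11.6% of all tested loci, with a median log2 fold change of 1.10 beside -0.01. The list was chosen with earlier results of these data known, so this contrast is a description and not a test. Of the 16, *Fabp3* passed the expression filter through the TG mice alone. These genes rose across mitochondrial and peroxisomal fat oxidation and its fuel switch. *Pdk4*, the kinase that shuts off pyruvate dehydrogenase, had 434, 477 and 590 FPKM in TG mice and 57.1, 38.2 and 44.8 FPKM in WT mice (log2 fold change 3.40, limma adjusted p = 0.000231). *Hadhb* and *Hadha*, the subunits of the mitochondrial trifunctional protein of β-oxidation, rose by 2.78 (adjusted p = 0.000401) and 1.93 (adjusted p = 0.000317) on the log2 scale. *Plin5* rose from 7.85 ± 2.29 to 48.4 ± 6.17 FPKM (SD, n = 3 each, log2 fold change 2.50, limma adjusted p = 0.000665). In each of these 4 genes, which were called under all 14 alternatives, every TG mouse was above every WT mouse. Listed genes that were not called include *Acaa1b*, a peroxisomal thiolase, at 0.49 (adjusted p = 0.0698), and *Angptl4*, a secreted lipase inhibitor, at 0.49 (adjusted p = 0.181). *Cpt1a*, which brings fatty acids into mitochondria, stood at -0.28 (adjusted p = 0.397). *Cpt1b*, which is also on the list, had no row, so its level is not given. Many of these enzymes are also abundant in brown adipocytes, whose markers were higher in the same mice, and the part of *Ppara* in their levels was not tested.

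Of 20 listed PPARγ targets, 19 were tested. Of these, 2 were higher, 3 were lower and 14 were not called, or 10.5% higher and 15.8% lower beside 11.6% and 7.03% of all tested loci, with a median log2 fold change of -0.18. With quantile normalization the split was 2 higher and 6 lower. *Gpd1*, which makes glycerol phosphate, rose from 973 ± 30.8 to 2704 ± 393 FPKM (SD, n = 3 each, log2 fold change 1.46, limma adjusted p = 0.00176). *Aqp7*, the glycerol channel, was the other gene called higher (log2 fold change 0.65, adjusted p = 0.0249). *Adipoq*, which encodes adiponectin, had 1354, 1457 and 1279 FPKM in TG mice and 2911, 2447 and 2084 FPKM in WT mice (log2 fold change -0.85, adjusted p = 0.0172). *Lpl*, lipoprotein lipase, fell from 1560 ± 175 to 977 ± 62.4 FPKM (log2 fold change -0.67, adjusted p = 0.0209). *Cfd*, the adipokine adipsin, was the third gene called lower (log2 fold change -1.91, adjusted p = 0.0200), on a listed locus that many neighbouring genes share. Among the 14 genes not called, log2 fold changes were 0.28 for *Fabp4* (adjusted p = 0.531), 0.04 for the droplet coat gene *Plin1* (0.823), -0.19 for the fatty acid transporter *Cd36* (0.298), 0.60 for *Agpat2* (0.0875) and 0.55 for the glucose transporter *Slc2a4* (0.0737). The call of *Adipoq* was lost without TG 3 or WT 2, that of *Lpl* without TG 1, TG 3, WT 1 or WT 2, and that of *Cfd* without TG 1, TG 3, WT 1 or WT 3, with quantile normalization and with the replicate block. No listed PPARγ target, higher or lower, was called without a filter. The count of lower genes rested on single mice, at 0 without TG 3 and 1 without WT 1 or without WT 2. The count of higher genes was 1 without any single mouse other than TG 2, and *Gpd1* remained called in each of those fits.

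Of 16 listed LXR targets, 12 were tested, and 1 was higher, 3 were lower and 8 were not called, among the latter *Scd1* and *Fasn*, which are listed at 0 in some mice. These are 8.33% higher and 25% lower beside 11.6% and 7.03% of all tested loci, where the 12 include *Scd1* and *Fasn*. Their median log2 fold change was -0.37, or -0.22 without *Scd1* and *Fasn*. *Mylip*, an E3 ligase that degrades the LDL receptor, had 17.2, 14.7 and 12.8 FPKM in TG mice and 23.2, 23.8 and 25.2 FPKM in WT mice. All TG values were below all WT values (log2 fold change -0.67, limma adjusted p = 0.00869), and *Mylip* was called under all 14 alternatives. *Pltp*, the phospholipid transfer protein, on a listed locus shared with *Ctsa* and *Neurl2*, was lower at -0.67 (adjusted p = 0.0313), and *Lpl*, which is in both lists, was the third gene lower. *Mlxipl*, which encodes the glucose-responsive factor ChREBP, rose from 62.7 ± 6.51 to 105 ± 25.4 FPKM (SD, n = 3 each, log2 fold change 0.71, limma adjusted p = 0.0310). Its call was lost without TG 3 or without any 1 of the WT mice, so that no listed gene was then higher, and the count of lower genes was 1 without TG 1, TG 3, WT 1 or WT 2. The call of *Mlxipl* was also lost without a filter and with the replicate block. *Pltp* lost its call without any single mouse other than TG 2, and also without a filter. The cholesterol exporters *Abca1* and *Abcg1* had log2 fold changes of -0.19 (adjusted p = 0.187) and -0.22 (adjusted p = 0.0816), and the lipogenic factor *Srebf1* 0.03 (adjusted p = 0.939). *Apoe*, an apolipoprotein made by adipocytes and macrophages, stood at -0.51 (adjusted p = 0.0922). The lipogenic enzyme *Scd1* is listed at 0 in TG 1, TG 2 and WT 2 but at 9319 in TG 3, 7086 in WT 1 and 7395 FPKM in WT 3. *Fasn* is listed at 0 in TG 2 but at 4261 and 3632 FPKM in TG 1 and TG 3, and between 2566 and 2648 FPKM in the WT mice. Zeros beside such high values can be failed estimates, so no fold change is given for these genes. Summed macrophage and summed endothelial markers, like the lower LXR targets and *Rxra*, were lower in every TG mouse than in any WT mouse. Among the TG mice the order differed. Macrophage markers were lowest in TG 1, where *Mylip* and *Rxra* were highest. They were highest in TG 2, as were *Pltp* and *Lpl*. The part of macrophage RNA in these values was not tested.

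**Figure D4:**
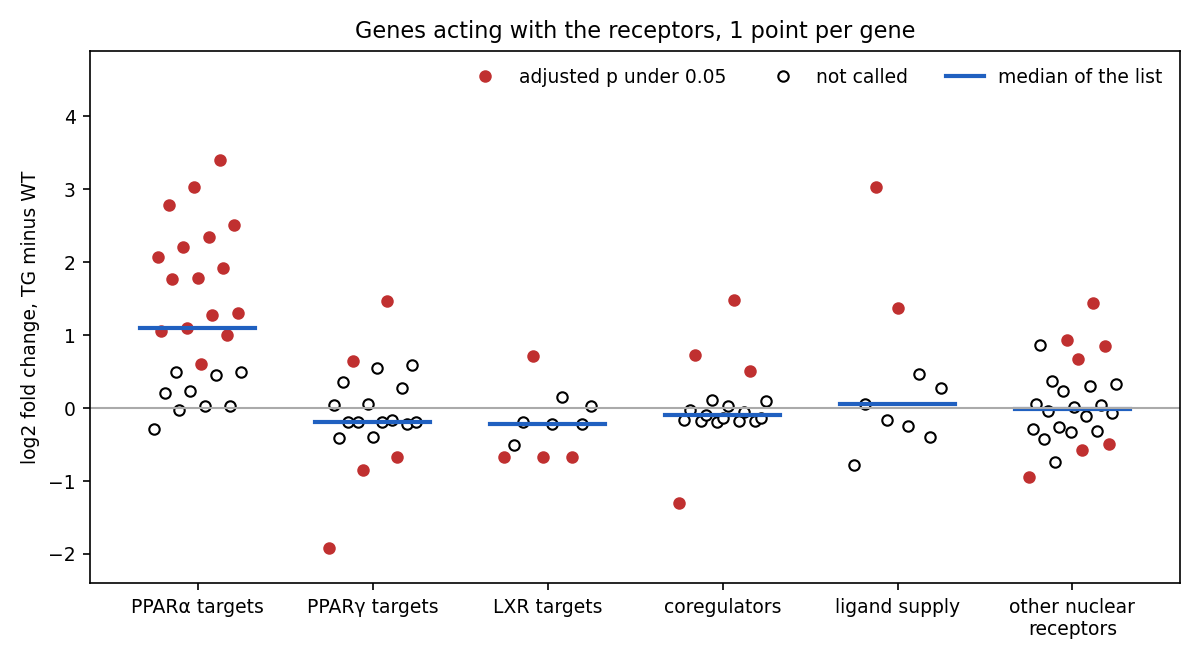
Log2 fold change (TG minus WT, on log2(FPKM + 1)) of each tested gene in 6 lists, 1 point per gene, filled red where the limma adjusted p is under 0.05 and open otherwise, with a blue line at the median of the list. Genes listed at 0 in a mouse (*Scd1* and *Fasn*) are left out, 16 of 25 PPARα targets are filled and above 0, and the medians of the other lists lie between -0.22 and 0.05.

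The plot of the gene lists shows the PPARα targets with a spread reaching 3.40, whereas most coregulator points lie near 0. Of 17 coregulators of these receptors, all were tested, and 3 were higher, 1 was lower and 13 were not called, with a median of -0.10. The shares, 17.6% higher and 5.88% lower, stand beside 11.6% and 7.03% of all tested loci. *Ppargc1b*, the coactivator PGC-1β, had 11.0, 11.7 and 18.8 FPKM in TG mice and 4.48, 3.59 and 4.42 FPKM in WT mice (log2 fold change 1.49, limma adjusted p = 0.00364). Like *Ppara*, it was highest in TG 3 and lowest in WT 2. *Ppargc1a*, which encodes PGC-1α, rose less, from 3.43 ± 0.277 to 5.30 ± 0.377 FPKM (SD, n = 3 each, log2 fold change 0.51, limma adjusted p = 0.0122), and both genes were called under all 14 alternatives. *Prdm16*, a coregulator that defines brown adipocytes, rose from 1.54 ± 0.241 to 3.25 ± 0.887 FPKM (log2 fold change 0.73, limma adjusted p = 0.0258). That call was lost without a filter and without TG 3, WT 2 or WT 3. *Nrip1*, the corepressor RIP140, which restrains oxidative genes in fat, had 5.22, 13.8 and 11.9 FPKM in TG mice and 26.4, 25.8 and 23.3 FPKM in WT mice. All TG mice were below all WT mice (log2 fold change -1.30, limma adjusted p = 0.0273). The call was lost without a filter, without TG 3 and without any 1 of the WT mice. The largest values among the genes not called were -0.19 for the coactivator *Ncoa3* (adjusted p = 0.358) and -0.18 for the acetyltransferase *Ep300* (adjusted p = 0.129).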

How the data were processed

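RNA-Seq libraries (TruSeq RNA v2, which does not keep strand) from iWAT of 3 WT and 3 TG mice were read from 1 end over 100 bases. The authors aligned them to mm10 and deposited 1 FPKM value per gene and mouse. The submitters' processing notes name CASAVA 1.8.2, TopHat2 2.0.9, Bowtie2 2.1.0 and Cufflinks 2.2.1. The annotation behind the table is not given in the sources used here. Reads and counts were not used here, so absolute depth is unknown. From steps between low values (under 0.3 FPKM), relative depth was 0.714, 1.14 and 0.693 in TG and 0.944, 1.42 and 1 in WT mice, with WT 3 as reference. Low values are least precise in TG 1 and TG 3.

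Symbols were matched exactly, and for a symbol on several rows the row of highest mean FPKM was kept. Besides *Cfd*, *Pltp* and *Rxrb*, several named genes lie on a listed locus shared with other rows. These are *Hadha* (with *Fam59b*), *Hadhb* (*Mir1960*), *Agpat2* (*Egfl7* and *Mir126*) and *Slc2a4* (*Ybx2*). *Fabp3* (*Zcchc17*), *Esrrg* (*Mir5111*) and *Nr2f6* (*Ocel1*) also belong to them. Loci with a mean FPKM over 1 in either genotype were tested on log2(FPKM + 1) with limma 3.58.1 in R 4.3.3 (lmFit, then eBayes with trend, without covariates, two-sided, adjusted over all tested loci by Benjamini-Hochberg). Single ratios used an exact two-sided permutation test. The script was tested on simulated data. Intervals and p-values cover the spread between mice, which are separate animals. Replicate numbers name different animals and were not used as a block in the main test. Starts in the table count from 0 and were raised by 1. Promoter windows came from RefSeq (GRCm38.p6) and exons from GENCODE. Other tools were Python 3.11.15, scipy 1.17.1, pandas 2.3.3, numpy 2.4.6 and matplotlib 3.10.9.

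The members and gene lists were chosen with earlier results of these data known. Named genes are the receptors, *Hlx*, the 4 genes of lowest p and the 2 largest uncalled changes of each list, and the 2 loci most like each receptor. *Fabp4*, *Plin1*, *Cd36*, *Cpt1a*, *Aqp7*, *Abca1*, *Abcg1*, *Apoe*, *Srebf1*, *Rarb*, *Nr4a2* and *Nr2f1* were added after their values were seen. A result that this rule selects is not reported here.

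The 14 alternatives were a pseudocount of 0.1, no filter, a filter on the mean of all mice, median-ratio scaling, quantile normalization, a replicate block, eBayes without trend, summing over the loci of a symbol, and leaving out each of the 6 mice. A planned ratio and share of *Nr1h3* were not formed because its row is merged with *Madd*.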

Additional observations from a re-analysis of the deposited data

How the results depend on the processing

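*Ppara* and *Rxra* kept their direction and their call under all 14 alternatives (adjusted p from 0.00181 to 0.0259 and from 0.00569 to 0.0496), and *Rxrb* was called under none (0.17 to 0.23 on the log2 scale, adjusted p from 0.0613 to 0.233). With quantile normalization the log2 fold change of *Nr1h2* was -0.06, and 6 PPARγ targets were lower. Without a filter, which tests 19445 rows and calls 748 higher and 381 lower over all, 0 coregulators were lower, 0 PPARγ targets were higher and 0 lower, 0 LXR targets were higher and 1 lower, and 2 other nuclear receptors were higher. The replicate block, with same-number correlations of deviations from 0.0129 to 0.0701 that do not pair the mice, gave 1230 loci higher and 656 lower, kept *Ppara* and *Rxra* called, and left 0 LXR targets higher.

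With each mouse left out in turn, log2 fold changes ranged from -0.09 to 0.055 for *Ppard*, from -0.33 to 0.20 for *Pparg*, from -0.25 to 0.087 for *Rxrg* and from -0.005 to 0.084 for *Nr1h2*, and the *Ppard* to *Pparg* log2 difference from -0.30 to 0.30. Counts ranged from 0 to 1 for coregulators lower, from 1 to 2 and from 0 to 3 for PPARγ targets higher and lower, and from 0 to 1 and from 1 to 3 for LXR targets higher and lower. PPARα targets higher ranged from 16 to 18. Over all loci, 812 were higher and 329 lower without TG 3, 780 and 400 without WT 3, 851 and 424 without WT 2, 493 lower without WT 1 and 470 lower without TG 1. The causes were not tested. With 3 mice per genotype and unknown depth, small differences of the receptors not called cannot be resolved.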

Other observations

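Among 41 other nuclear receptors, 24 were tested, of which 4 were higher, 3 were lower and 17 were not called, or 16.7% higher and 12.5% lower beside 11.6% and 7.03% of all tested loci, with a median log2 fold change of -0.02. *Esrrg* passed the expression filter through the TG mice alone and *Nr2f1* through the WT mice alone. *Esrrg*, an orphan receptor of oxidative tissues, rose from 0.410 ± 0.066 to 2.88 ± 0.778 FPKM (SD, n = 3 each, log2 fold change 1.44, limma adjusted p = 0.00237). *Nr2f6*, an orphan receptor of the COUP-TF family, rose from 12.1 ± 0.803 to 19.99 ± 1.76 FPKM (log2 fold change 0.68, limma adjusted p = 0.00409). *Nr3c1*, the glucocorticoid receptor, fell from 29.0 ± 2.20 to 20.3 ± 1.37 FPKM (log2 fold change -0.50, limma adjusted p = 0.0112). *Esrrg*, *Nr2f6* and *Nr3c1* were called under all 14 alternatives. *Rarb* (0.85, limma adjusted p = 0.0122) and *Nr4a2* (0.93, adjusted p = 0.0198) were also higher and *Nr2f1* was lower (-0.58, adjusted p = 0.0428). The calls of *Rarb* and *Nr4a2* were lost without a filter, and that of *Nr4a2* also without TG 1, WT 1 or WT 3. The call of *Nr2f1* (0.726 FPKM in TG and 1.57 FPKM in WT iWAT) was lost without any single mouse, with a pseudocount of 0.1, without a filter and with the replicate block. *Nr4a1* (0.87, adjusted p = 0.112) and *Esr1* (-0.74, adjusted p = 0.0603) had larger log2 fold changes than some of these and were not called.

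Among 14 genes that supply or carry ligands of these receptors, 9 were tested, of which 2 were higher, 0 were lower and 7 were not called, or 22.2% called beside 18.6% of all tested loci, with a median log2 fold change of 0.05. *Fabp3*, a fatty acid carrier of heart and brown fat, rose from 0.956 ± 0.315 to 15.7 ± 6.49 FPKM (SD, n = 3 each, log2 fold change 3.03, limma adjusted p = 0.00119), and it is also in the PPARα list and passed the filter through the TG mice alone. *Ptgds*, a prostaglandin D synthase, rose by 1.37 on the log2 scale (limma adjusted p = 0.00346). *Cyp27a1*, which makes an oxysterol, stood at 0.47 (adjusted p = 0.0554) and *Aldh1a2*, which makes retinoic acid, at -0.78 (adjusted p = 0.0812), and neither was called.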
